A study of Mus musculus with 35 samples.

Results

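A set of 9 genes of fatty acid oxidation were followed across 9 groups of mouse skin samples. They were Pdk4, Ucp3, Cpt1a, Cpt1b, Angptl4, Acadl, Acadm, Ppara and Ppargc1a, which are 9 of the 36106 genes in the count table. They were taken by symbol, and each symbol had 1 row. Pdk4 and Ucp3 were on the list because they ranked high in weeks 1 and 2 after irradiation. The rule does not name the comparison, and radiated against control skin was assumed. By p-value there, Pdk4 was number 4 and Ucp3 number 53 of 17578 genes tested in week 1. In week 2 they were number 359 and number 113 of 17345. Their values in those weeks are therefore given as a description with no test. All 9 genes passed the filter on low counts in every comparison.

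Bulk RNA was sequenced from 35 pieces of skin, taken from 19 mice of the inbred strain C57BL/6J, all female and 10 weeks old. The skin of the left flank received 25 Gy, given at 3.6 Gy per min over 420 seconds, and was shaved afterwards. Radiated skin and control skin were taken at weeks 1, 2, 3 and 4 after irradiation, with n = 4 in each of those 8 groups, and sham skin came from 3 mice that were not irradiated. The labels do not give the body site of the control skin. With 35 samples from 19 mice, radiated and control samples that carry the same number in a week were taken to come from 1 mouse, and a second fit used that number as a block. Levels are CPM (counts per 1e6) after scaling of the libraries with the trimmed mean of M values (TMM). Library totals ran from 17362853 to 28487885 counts, and 3 counts, the floor used here, are between 0.105 and 0.173 CPM. In bulk samples of this kind, fewer cells of a type and less RNA per cell cannot be told apart.

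Cells that burn fatty acids spare glucose. PDK4, pyruvate dehydrogenase kinase 4, shuts the pyruvate dehydrogenase complex by phosphorylation, so that less pyruvate enters the citric acid cycle as acetyl-CoA. CPT1A and CPT1B sit in the outer mitochondrial membrane and couple long-chain fatty acids to carnitine, the gate of fatty acid entry. CPT1B is the muscle form and CPT1A the form of liver and many other tissues. ACADL and ACADM are the acyl-CoA dehydrogenases that open beta-oxidation of long-chain and medium-chain fatty acids. UCP3 is an uncoupling protein of the inner mitochondrial membrane, found mainly in skeletal muscle and brown fat. ANGPTL4 is a secreted inhibitor of lipoprotein lipase, which frees fatty acids from circulating lipoproteins. PPARA is a nuclear receptor for fatty acids that drives many of these genes, and PPARGC1A is a coactivator of PPARA and of mitochondrial genes. In mice a thin sheet of striated muscle, the panniculus carnosus, lies under the skin and can be part of a skin biopsy.

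Pdk4 lies on the minus strand of chromosome 6 (5483351 to 5496309) and Ucp3 on the plus strand of chromosome 7 (100472990 to 100486432), in the GRCm38 build with GENCODE M21. The sequences just upstream of both gene starts are shown because these are the genes that led the choice of the set. They are RefSeq promoter sequence of GRCm38.p6, the bases upstream of the starts of both annotations, 219 bases at chr6:5496310-5496528 on the minus strand and 249 bases at chr7:100472741-100472989 on the plus strand. Capitals mark matches to 5 motifs that were searched on both strands.
Pdk4 upstream: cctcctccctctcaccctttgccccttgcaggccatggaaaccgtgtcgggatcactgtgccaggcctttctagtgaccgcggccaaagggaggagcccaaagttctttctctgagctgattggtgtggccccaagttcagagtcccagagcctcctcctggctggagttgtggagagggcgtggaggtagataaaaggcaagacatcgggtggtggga
Ucp3 upstream: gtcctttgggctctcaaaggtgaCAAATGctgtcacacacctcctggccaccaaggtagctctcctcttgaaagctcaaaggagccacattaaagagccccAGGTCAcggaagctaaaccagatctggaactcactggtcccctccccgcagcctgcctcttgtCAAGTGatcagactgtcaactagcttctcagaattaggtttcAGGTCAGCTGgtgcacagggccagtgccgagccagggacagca
The motifs were AGGTCA, bound by nuclear receptors, GTAAACA, bound by FOXO factors, AGAACA, bound by the glucocorticoid receptor, TGACGTCA, the cAMP response element, and CANNTG, the E-box. The Ucp3 stretch held 5 matches: 2 of AGGTCA and 3 E-boxes, 1 of which shares its first bases with the AGGTCA before it, as AGGTCAGCTG. The Pdk4 stretch held 0 matches, and 1 E-box lay in the 31 bases nearest its RefSeq start that are not shown. Of 32851 RefSeq windows of 250 bases, AGGTCA was present in 14%, GTAAACA in 3.17%, AGAACA in 16.1%, TGACGTCA in 1.55% and CANNTG in 66.2%. Windows were found for 7 of the 9 genes, all but Cpt1b and Angptl4, and 3 of the 7 held AGGTCA and 6 an E-box. A match describes letters only, and no binding was measured.

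Muscle RNA was present in every group and differed between groups. All 12 skeletal muscle markers (Acta1, Ckm, Myh1, Myh2, Myh4, Mylpf, Myl1, Tnnc2, Tnni2, Tnnt3, Mb and Ryr1) were detected in all 9 groups. Their summed level was 29440 to 48240 CPM in control skin of week 1 and 11910 to 26710 CPM in radiated skin, 32700 to 59000 against 15660 to 29960 CPM in week 2, and 21910 to 41550 against 4110 to 9967 CPM in week 3. In week 4 it was 1916 to 26820 CPM in control and 2897 to 6107 CPM in radiated skin, the only week in which the ranges overlapped, through control replicate 1 at 1916 CPM. Sham skin held 8596 to 22630 CPM. In the comparison of radiated with control skin, 10 of the 12 markers were lower at an adjusted p under 0.05 in week 3 (edgeR, quasi-likelihood F test, adjusted over all genes by Benjamini-Hochberg). Of all genes 13.6% were called lower in week 3. In week 4, 6 markers were lower and 1, Myh2, was higher, and with the replicate block 1, Myh4, was lower. Of all genes 24.2% were called in each direction in week 4, and 21.3% were called lower with the block. The adipocyte list of 8 markers, all detected, summed to 669.9 to 1318 CPM in control and 246 to 637 CPM in radiated skin of week 1, without overlap. There 0 of 8 were called, as were 0% of all genes, and their median difference was -1.1. In week 3 the sums were 274 to 487 against 268 to 359 CPM. Keratinocyte markers, which define the labelled tissue, were detected in all groups, with sums from 5430 to 26420 CPM. The markers move with several results below, and their part in them was tested only for the 9 genes, by the fit with a muscle term given after the levels.

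Pdk4 was lower in radiated than in control skin in every week by its group mean. In week 1, Pdk4 was at 125.3, 178.1, 177.1 and 261.1 CPM in control replicates 1 to 4 and at 89.4, 45.9, 59.5 and 72.8 CPM in radiated replicates 1 to 4. In week 2 the control replicates were at 215, 682, 513 and 353 CPM and the radiated replicates at 187, 244, 168 and 175 CPM. The groups of week 1 did not overlap, while in week 2 radiated replicate 2 lay above control replicate 1. The fitted log2 differences for Pdk4 were -1.47 (SE 0.248) in week 1 and -1.20 (SE 0.313) in week 2, values from the contrast taken to have chosen the gene. Those weeks were not tested for Pdk4, and weeks 3 and 4 come from other mice.

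In week 3 Pdk4 stood at 804, 312, 256 and 370 CPM in control skin and at 97.3, 170.6, 98.6 and 54.6 CPM in radiated skin. The groups did not overlap. Pdk4 was 4.04-fold lower in radiated skin (log2 difference -2.02, SE 0.424, adjusted p = 0.00848, edgeR), lower in 4 of 4 pairs. In week 4 the control replicates were spread widely, at 26.7, 120.7, 215 and 702 CPM, and the radiated replicates lay close together at 39.5, 52.7, 55 and 47.9 CPM. Control replicate 1 was below all 4 radiated samples. The difference in week 4 was -2.45 (SE 0.761, adjusted p = 0.0235, edgeR), but with the replicate block it was -1.61 and its adjusted p was 0.101. The call was also lost without control replicate 4 (-1.27, adjusted p = 0.0809) and without radiated replicate 1 (-2.36, 0.0614), 2 (-2.49, 0.0509) or 4 (-2.44, 0.0561). From week 3 to week 4 the radiated-minus-control difference of Pdk4 changed by -0.40 (SE 0.748, adjusted p = 0.877, edgeR).

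Ucp3 was lower in radiated than in control skin in every week by its group mean as well. In week 1 its control replicates were at 23.7, 29, 35.8 and 40.6 CPM and its radiated replicates at 20.8, 11.7, 15.3 and 13.4 CPM. In week 2 they were at 37.75, 83.1, 76.7 and 59.1 CPM against 28.8, 30.9, 34.2 and 21.3 CPM. Neither week had an overlap between the groups, and the fitted log2 differences, given without a test, were -1.07 (SE 0.226) and -1.16 (SE 0.251).

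In week 3, Ucp3 was at 36.05, 33.7, 25.9 and 32.8 CPM in control skin and at 6.36, 6.67, 15.4 and 5.8 CPM in radiated skin, where replicate 3 stood apart from the other radiated samples. It was 3.67-fold lower (log2 difference -1.88, SE 0.318, adjusted p = 0.00359, edgeR), in 4 of 4 pairs and with no overlap. In week 4 control skin was at 3.28, 11, 9.01 and 26.9 CPM and radiated skin at 2.9, 3.8, 3.65 and 3.03 CPM. Here the ranges overlapped, because control replicate 1 fell among the radiated samples, yet every radiated sample lay below its own control. The difference of -1.91 (SE 0.518) passed the test (adjusted p = 0.0126, edgeR; 0.0319 with the replicate block), and it passed in each fit without 1 library, at -1.18 (adjusted p = 0.0361) without control replicate 4. The change of its difference from week 3 to week 4 was 0.0021 (adjusted p = 1, edgeR).

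**Figure D1:**
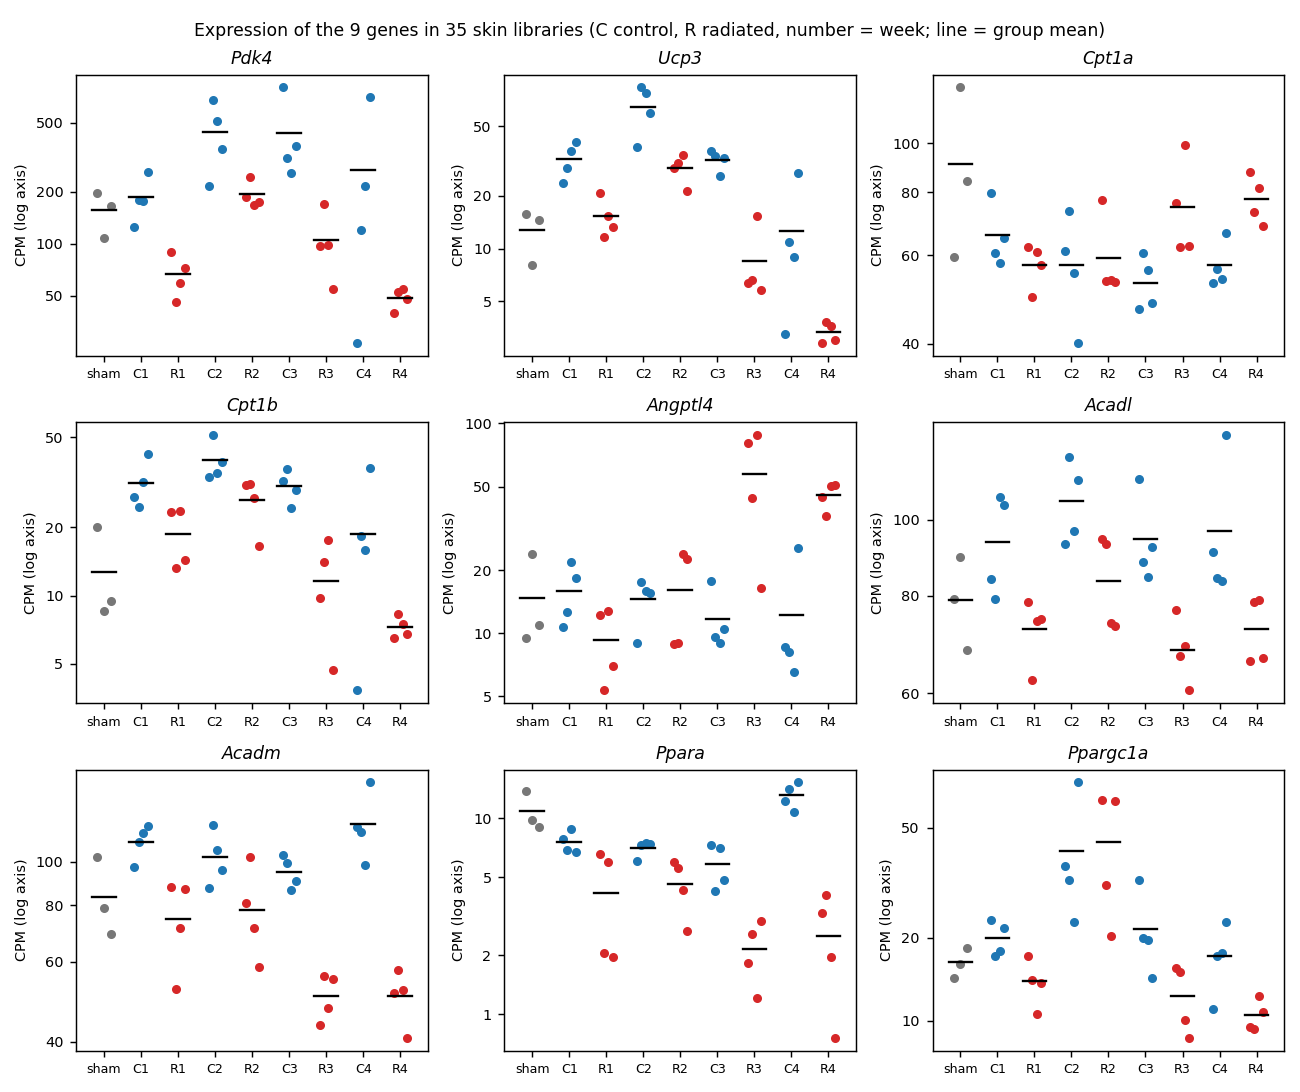
Level of each gene in CPM (log axis, counts per 1e6 counts of the library) in 35 skin libraries, with 1 point per library and a line at the group mean; sham has 3 libraries and each control (C) or radiated (R) group has 4. Pdk4 and Ucp3 of week 3 lie at 256 to 804 and 25.9 to 36.05 CPM in control skin against 54.6 to 170.6 and 5.8 to 15.4 CPM in radiated skin, while Angptl4 is at 36.4 CPM or more in all 4 radiated libraries of week 4.

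Ordered by group mean, Pdk4 was highest in control skin of weeks 2 and 3 (441 ± 202 and 435 ± 250 CPM, SD, n = 4), while week 4 radiated skin was lowest (48.8 ± 6.84 CPM, SD, n = 4). Sham skin, at 195.3, 107.3 and 166 CPM, was number 6 of the 9 groups. Each of the 8 neighbouring pairs in that order overlapped. Ucp3 was highest in control skin of week 2 (64.2 ± 20.3 CPM, SD, n = 4), with sham at 15.8, 8.06 and 14.6 CPM, and lowest in radiated skin of week 4 (3.35 ± 0.444 CPM, SD, n = 4). Of its 8 neighbouring pairs, 6 overlapped. The gaps lay between radiated skin of week 2 and of week 1, and between radiated skin of week 3 and of week 4.

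Of the 2 forms of CPT1, Cpt1b was called lower in weeks 3 and 4 and Cpt1a higher in week 4. Cpt1b (chromosome 15, 89416405 to 89425863, minus strand), the muscle form, was at 32, 36.2, 24.45 and 29.35 CPM in control skin of week 3 and at 9.79, 14, 17.6 and 4.7 CPM in radiated skin. The groups did not overlap, and Cpt1b was 2.59-fold lower (log2 difference -1.37, SE 0.349, adjusted p = 0.0183, edgeR). In week 4 it was at 3.81, 18.3, 15.9 and 36.6 CPM in control skin and at 6.49, 8.3, 7.5 and 6.78 CPM in radiated skin, with control replicate 1 below every radiated sample. The difference of week 4 was -1.36 (SE 0.507, adjusted p = 0.0492, edgeR). That call did not hold with the replicate block (-1.02, adjusted p = 0.127), and it was lost in 7 of the 8 fits that left out 1 library, all but that without control replicate 1. In those 7 the difference lay between -1.44 and -0.77 and the adjusted p between 0.0701 and 0.18. Without control replicate 4 the difference was -0.77. It was lost as well with total-count scaling (-1.24, adjusted p = 0.0562) and with a minimum mean of 1 CPM (0.0551). In weeks 1 and 2 Cpt1b was 0.75 and 0.59 lower on the log2 scale, with no overlap in either week, and neither difference passed the test (adjusted p = 0.253 and 0.276, edgeR).

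Cpt1a (chromosome 19, 3322334 to 3385733, plus strand) was called lower in no week. Its week 4 levels were 52.9, 56.3, 53.8 and 66.5 CPM in control skin and 87.5, 72.9, 81.6 and 68.6 CPM in radiated skin, without overlap. Cpt1a was 1.36-fold higher there (log2 difference 0.44, SE 0.111, adjusted p = 0.00843, edgeR), in 4 of 4 pairs, a call lost in the single fit of all 35 libraries (adjusted p = 0.0748). Sham skin held the most Cpt1a of all 9 groups, 91 CPM on average with samples at 59.5, 129.1 and 84.3 CPM, and radiated skin of week 4 was not called against it (-0.19, SE 0.24, adjusted p = 0.613, edgeR). In week 3 it was at 47, 60.5, 56.1 and 48.2 CPM in control and 76, 62.2, 99 and 62.45 CPM in radiated skin. That difference of 0.53 (SE 0.182) missed the threshold (adjusted p = 0.0559, edgeR), although the groups did not overlap, and it passed without radiated replicate 4 (0.61, adjusted p = 0.0371), with total-count scaling (0.75, 0.00815), with DESeq2 (0.51, 0.0409) and in the single fit of 35 libraries (0.501, 0.0423). In weeks 1 and 2 the differences were -0.19 (adjusted p = 0.546) and 0.04 (adjusted p = 0.954, edgeR). The log2 ratio of Cpt1b to Cpt1a put both forms in 1 number per library. It was taken from unscaled counts, with 0.5 counts added to each. In week 3 it averaged -0.802 ± 0.276 over the control and -2.83 ± 0.684 over the radiated libraries (SD, n = 4), a difference of -2.03, and -2.01 ± 1.25 against -3.41 ± 0.257 in week 4, a difference of -1.41. Without 1 library these differences ran from -2.25 to -1.73 in week 3 and from -2 to -1.03 in week 4. In weeks 1 and 2 the differences were -0.588 and -0.668. By an exact 2-sided permutation test the p of week 3 was 0.0286, the smallest that 4 against 4 samples allow, and 0.114 after adjustment over the 4 weeks. In weeks 1, 2 and 4 the exact permutation p was 0.114, 0.0571 and 0.143.

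Of the acyl-CoA dehydrogenases, Acadm was called lower in radiated skin of weeks 3 and 4, and so was Acadl, whose calls did not hold with the replicate block. Acadm (chromosome 3, 153922357 to 153944632, minus strand) was at 103.3, 99.4, 86.8 and 90.6 CPM in control skin of week 3 and at 43.5, 55.9, 47.4 and 55.1 CPM in radiated skin. In week 4 it was at 119.6, 116.1, 98.4 and 149.8 CPM against 51.3, 57.6, 52 and 40.7 CPM. The ranges were well apart in both weeks, with tighter replicates than those of Pdk4 except in radiated skin of week 4. Acadm was 1.85-fold lower in week 3 (log2 difference -0.89, SE 0.129, adjusted p = 0.00217) and 2.39-fold lower in week 4 (-1.26, SE 0.148, adjusted p = 9.82e-05, edgeR). In weeks 1 and 2 it was 0.56 and 0.40 lower on the log2 scale and not called (adjusted p = 0.237 and 0.377, edgeR). The difference of Acadm changed over the 4 weeks in an F test on the 3 terms by which the radiation effect can differ between weeks (adjusted p = 0.0361, edgeR), but not with the replicate block (0.0703), nor without the samples numbered 1, 3 or 4 (0.296, 0.11 and 0.182).

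Acadl (chromosome 1, 66830839 to 66863277, minus strand), the long-chain enzyme, ran from 84.4 to 112.8 CPM in control and from 60.5 to 76.65 CPM in radiated skin of week 3. In week 4 it ran from 83.5 to 128.4 CPM against 66.1 to 78.9 CPM. Neither week had an overlap. Its differences were -0.44 (SE 0.137, adjusted p = 0.04) and -0.41 (SE 0.149, adjusted p = 0.0438, edgeR), 1.36-fold and 1.33-fold lower. Both calls were lost with the replicate block (adjusted p = 0.0619 and 0.0939) and with scaling by total counts (-0.21, adjusted p = 0.297, and -0.32, adjusted p = 0.0791). In both weeks 6 of 8 fits without 1 library also lost the call, with differences from -0.47 to -0.35 in week 3 (adjusted p from 0.0546 to 0.118) and from -0.45 to -0.22 in week 4 (from 0.0547 to 0.108). Week 3 kept the call only without control replicate 3 or radiated replicate 1, and week 4 only without control replicate 2 or 3. In weeks 1 and 2 Acadl was 0.36 and 0.34 lower on the log2 scale, neither called (adjusted p = 0.299 and 0.342, edgeR).

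The receptor Ppara was lower in radiated skin in weeks 3 and 4, by more than Acadl and Acadm in both by the fitted difference, which was not tested between genes. Ppara (chromosome 15, 85734983 to 85802819, plus strand) was at 12.3, 14.1, 10.8 and 15.3 CPM in control skin of week 4 and at 3.29, 4.07, 1.97 and 0.759 CPM in radiated skin. In week 3 it was at 7.29, 4.26, 7.07 and 4.85 CPM in control and at 1.83, 2.57, 1.22 and 2.99 CPM in radiated skin. No radiated sample reached the lowest control sample in either week. Ppara was 2.68-fold lower in week 3 (log2 difference -1.42, SE 0.328, adjusted p = 0.0123) and 5.15-fold lower in week 4 (-2.36, SE 0.397, adjusted p = 0.000885, edgeR). Both calls held with the replicate block. In week 1 the radiated samples split into 6.62 and 6.00 CPM for replicates 1 and 3 and 2.05 and 1.97 CPM for replicates 2 and 4, under control levels of 6.73 to 8.88 CPM. The differences of weeks 1 and 2, -0.86 and -0.62, were not called (adjusted p = 0.356 and 0.341, edgeR). The group with most Ppara was control skin of week 4, at 13.1 ± 1.97 CPM (SD, n = 4), followed by sham at 10.8 ± 2.53 CPM (SD, n = 3), with overlapping ranges.

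Ppargc1a (chromosome 5, 51454250 to 51567726, minus strand), the coactivator, had its highest levels in week 2 in both kinds of skin, at 22.7 to 72.9 CPM in control and 20.3 to 63 CPM in radiated samples, with full overlap. In week 4 it was at 11, 17.2, 17.6 and 22.7 CPM in control skin and at 9.52, 9.35, 12.3 and 10.7 CPM in radiated skin. The ranges overlapped through control replicate 1, and each radiated sample was below its own control. Ppargc1a was 1.63-fold lower (log2 difference -0.71, SE 0.207, adjusted p = 0.0183, edgeR), a call lost without control replicate 4 (-0.51, adjusted p = 0.0641) and in the single fit of all 35 libraries (0.0836). The week 3 difference of -0.77 (SE 0.286) was not called (adjusted p = 0.0712, edgeR) but passed with the replicate block (0.0323). It passed as well with DESeq2 (-0.79, adjusted p = 0.0355) and in the single fit of 35 libraries (-0.81, adjusted p rounding to 0.05, edgeR). The differences of weeks 1 and 2 were -0.52 and 0.11, with adjusted p of 0.281 and 0.938 (edgeR).

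Angptl4 (chromosome 17, 33773750 to 33781830, minus strand), the secreted lipase inhibitor, rose in weeks 3 and 4, and beside Cpt1a it was the only one of the 9 genes called higher in radiated than in control skin. In weeks 1 and 2 it was between 5.34 and 23.9 CPM in every control and radiated sample. In week 3 control skin was at 17.7, 9.58, 9.02 and 10.45 CPM and radiated skin at 80.5, 44.1, 88.3 and 16.5 CPM, where radiated replicate 4 fell below control replicate 1. In week 4 control skin was at 8.63, 8.18, 6.54 and 25.6 CPM and radiated skin at 44.6, 36.4, 50.4 and 51.1 CPM, with no overlap. Angptl4 was 5.02-fold higher in week 3 (log2 difference 2.33, SE 0.478, adjusted p = 0.00765) and 3.71-fold higher in week 4 (1.89, SE 0.402, adjusted p = 0.00347, edgeR), in 4 of 4 pairs each time. Without control replicate 4 the week 4 difference was 2.59. The differences of weeks 1 and 2 were -0.76 (adjusted p = 0.322) and 0.15 (adjusted p = 0.899, edgeR). The radiated-minus-control difference changed over the 4 weeks (F test, adjusted p = 0.00232, edgeR, with and without the replicate block), where 15.6% of 19338 genes were called. Without the samples numbered 3 that adjusted p was 0.0657. The step from week 3 to week 4, -0.40 (SE 0.623), was not called (adjusted p = 0.842, edgeR), nor was that of any of the 9 genes, where 0.419% of all genes were called.

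Counted together, 0 of the 9 genes were called in week 1 and 0 in week 2. All genes tested were called at 0% and 0.00577% in those weeks, and 7 and 5 of the 9 had an unadjusted p under 0.05, as had 2477 of 17578 and 2388 of 17345 genes. Pdk4 and Ucp3, chosen by their rank in these weeks, are among the 7 and the 5. DESeq2 called 2 of the 9 in each of those weeks, where it called 2.73% and 4.44% of all genes, and with the replicate block edgeR called 1 in week 2, where it called 3.7%. Those calls were of Pdk4 and Ucp3, and of Ucp3 with the block, so nothing is read from them, and none of the other 7 genes was called. In week 3, 7 of 9 were called, 1 higher and 6 lower, where 27.2% of 17653 genes were called. In week 4 all 9 were called, 2 higher and 7 lower, where 48.4% of 17850 genes were called. With the replicate block 7 were called in week 3 and 6 in week 4, against 21.1% and 42.7% of all genes. The median log2 difference of the 9 was -0.89 in week 3 and -1.26 in week 4, beside 0.08 and 0.017 over all genes tested. In week 4 the count fell to 5 without control replicate 4.

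**Figure D2:**
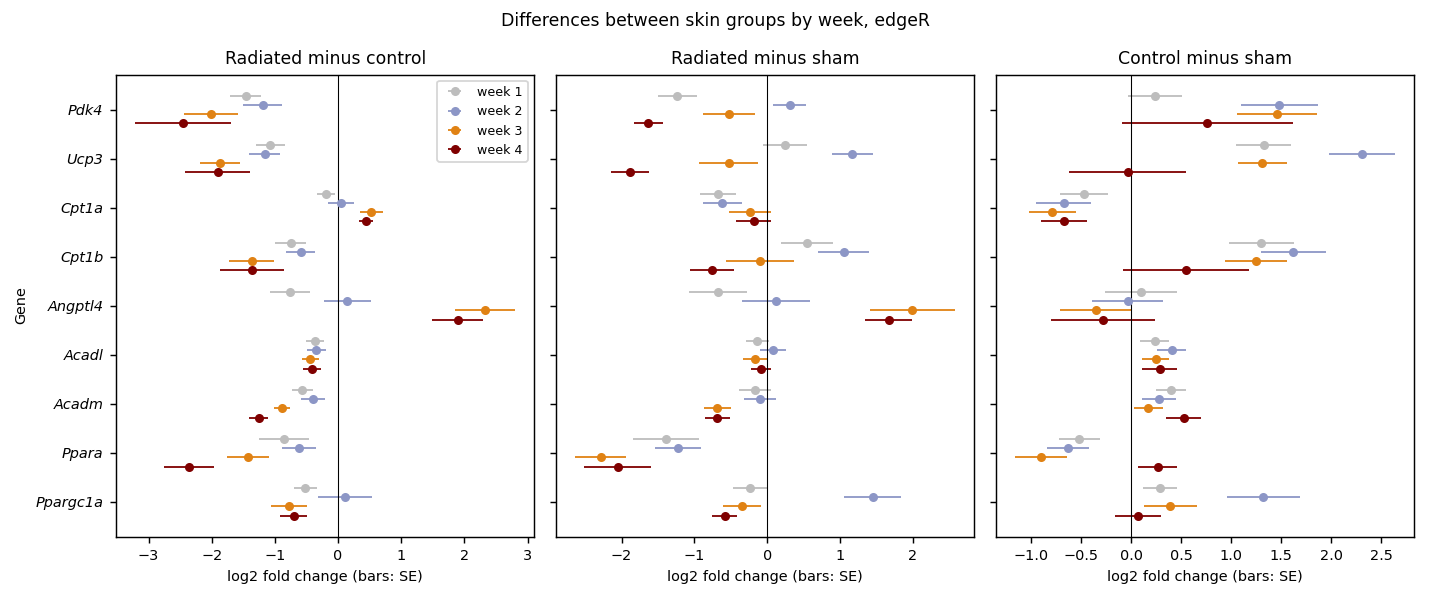
Log2 differences of the 9 genes with their standard errors (bars) for radiated minus control, radiated minus sham and control minus sham skin, by week (colours), from edgeR fits of each pair of groups. The radiated-minus-control values of Angptl4 move from -0.76 in week 1 to 2.33 in week 3, and those of Pdk4 lie between -2.45 and -1.20 in all 4 weeks.

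Sham skin gave a comparison that uses no control sample of an irradiated mouse. It shares its radiated samples with the comparisons above and its 3 sham samples with each other week, so the values stand side by side and are not separate evidence. Against sham, 0 of the 9 genes were called in week 1 and 1, Ucp3, in week 2, where 1.75% and 5.06% of all genes were called, and nothing is read from Ucp3 there. In week 1 an unadjusted p under 0.05 was found for 3 of the 9 (edgeR), Pdk4 among them, and for 3021 of 18228 genes. In week 3 Pdk4 (-0.52, SE 0.359, adjusted p = 0.348), Ucp3 (-0.53, SE 0.401, adjusted p = 0.394) and Cpt1b (-0.09, SE 0.468, adjusted p = 0.909, edgeR), all called lower against control skin that week, were not called against sham and overlapped with it. Of the 9 genes, 3 were called in week 3 and 6 in week 4, where 18.2% and 26.7% of all genes were called. In week 4 Pdk4 was 3.10-fold lower (-1.63, SE 0.205, adjusted p = 0.000971) and Ucp3 3.69-fold lower (-1.88, SE 0.255, adjusted p = 0.00132, edgeR), neither overlapping with sham. Ppara was 4.16-fold lower (-2.05, adjusted p = 0.0125) and 4.89-fold lower in week 3 (-2.29, adjusted p = 0.00686, edgeR). Angptl4 was 3.17-fold higher in week 4 (1.66, adjusted p = 0.00703) and 3.98-fold higher in week 3 (1.99, adjusted p = 0.0484, edgeR), where 6 of 7 fits without 1 library lost the call (adjusted p from 0.0628 to 0.143), all but that without radiated replicate 4. Acadm was 1.61-fold lower in both weeks (-0.68, adjusted p = 0.0388, and -0.69, adjusted p = 0.0178, edgeR). Its week 3 call was lost in 5 of 7 such fits, all but those without sham replicate 3 or radiated replicate 4 (adjusted p from 0.0705 to 0.157), and its week 4 call without sham replicate 1 (-0.51, 0.0599). Ppargc1a was lower in week 4 (-0.58, adjusted p = 0.0345, edgeR), a call lost in 5 of 7 fits, all but those without sham replicate 1 or radiated replicate 3 (adjusted p from 0.078 to 0.0959). Radiated skin of week 4 held 2897 to 6107 CPM of muscle markers and sham skin 8596 to 22630 CPM. Growing hair markers summed to 809 to 9817 CPM in sham and to 4.07 to 2416 CPM in radiated skin of week 4, with overlap and 0 of 7 markers called, and to 0.495 to 386 CPM in radiated skin of week 3, with 4 of 7 called lower. The part of hair in the sham comparisons was not tested, and since the muscle levels of sham and week 4 radiated skin do not overlap, muscle level and group cannot be told apart.

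Control skin of the irradiated mice was compared with sham as well, and Ucp3, Pdk4 and Cpt1b were called higher in week 3. Ucp3 was 2.48-fold higher in control skin of week 3 than in sham (1.31, SE 0.247, adjusted p = 0.0176), Pdk4 2.75-fold (1.46, SE 0.398, adjusted p = 0.0479) and Cpt1b 2.38-fold (1.25, SE 0.308, adjusted p = 0.0365, edgeR), where 11.4% of all genes were called. The ranges of control and sham skin did not overlap for these 3 genes. In week 2 Cpt1b was 3.08-fold higher (1.62, SE 0.323, adjusted p = 0.0438, edgeR), where 2.44% of all genes were called. As a description, Ucp3 was 2.31 above sham on the log2 scale in week 2 and 1.32 in week 1, where 4.92% of all genes were called, and Pdk4 1.48 and 0.24. Control skin of weeks 1 to 3 held 21910 to 59000 CPM of muscle markers and sham skin 8596 to 22630 CPM. Markers of other cells differed from sham too: in week 1, 5 of 8 adipocyte markers were higher and 3 of 7 sebocyte markers lower, in week 3, 4 of 7 growing hair and 3 of 7 sebocyte markers were lower, and in week 4, 7 of 7 growing hair markers were lower. Their part in the differences from sham was not tested. The share of all genes called against sham also moved with single libraries: the 881, 435, 2036 and 655 genes called for control skin of weeks 1 to 4 became 0 to 1803, 0 to 2199, 629 to 2438 and 0 to 1705. In week 4, where control skin held 1916 to 26820 CPM, 0 of the 9 genes were called against sham (edgeR), and 3.65% of all genes were. An unadjusted p under 0.05 was found for 2 of the 9 and for 3947 of 17925 genes. The call of Pdk4 in week 3 was lost in each of the 7 fits without 1 library (0.99 to 1.66, adjusted p from 0.0517 to 0.137) and with total-count scaling (0.0601). That of Cpt1b was lost in 6 of 7 fits in week 3, all but that without sham replicate 1 (adjusted p from 0.0605 to 0.116), and in 5 of 7 in week 2, all but those without sham replicate 1 or control replicate 1 (adjusted p from 0.106 to 0.146). The week 3 call of Ucp3 held in all 7 such fits (adjusted p from 0.0115 to 0.0469).

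The levels of Ucp3 and Cpt1b ran with the muscle markers over the 35 libraries. The correlation of log2 CPM with the muscle score, the mean log2 CPM of the 12 markers, was r = 0.94 for Ucp3, 0.94 for Cpt1b and 0.80 for Pdk4. For Acadm it was 0.65, for Ppargc1a 0.63, for Acadl 0.62 and for Ppara 0.43, and for Cpt1a and Angptl4 it was -0.34 and -0.41. With the same score of the adipocyte markers r was 0.65 for Acadm, 0.59 for Acadl and 0.44 for Ppara. It was 0.46 for Ucp3, 0.45 for Cpt1b, 0.26 for Ppargc1a, 0.21 for Pdk4, -0.17 for Cpt1a and -0.22 for Angptl4. These describe 35 libraries that share groups, mice and scaling. Among 16404 genes ranked over the 35 libraries, those most like Ucp3 were Clcn1 (r = 0.96), the chloride channel of muscle fibres, Pygm (0.951), muscle glycogen phosphorylase, Ckm (0.949), muscle creatine kinase, Scn4b (0.948), a sodium channel subunit, and Atp2a1 (0.947), the calcium pump of fast muscle. Spearman's rho for these 5 was 0.934, 0.943, 0.938, 0.95 and 0.935. Those most like Pdk4 were Hspa1l (0.864), Usp13 (0.864), Ndrg2 (0.858), 2310002L09Rik (0.847) and Zfp106 (0.844), with rho of 0.873, 0.87, 0.886, 0.887 and 0.871. Ucp3 was number 22 in likeness to Pdk4 (r = 0.823, rho = 0.831), while Pdk4 was number 259 in likeness to Ucp3, and Cpt1b was number 33 in likeness to Pdk4 (0.818, 0.858). Cpt1b was number 28 in likeness to Ucp3 (0.929, 0.947).

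**Figure D3:**
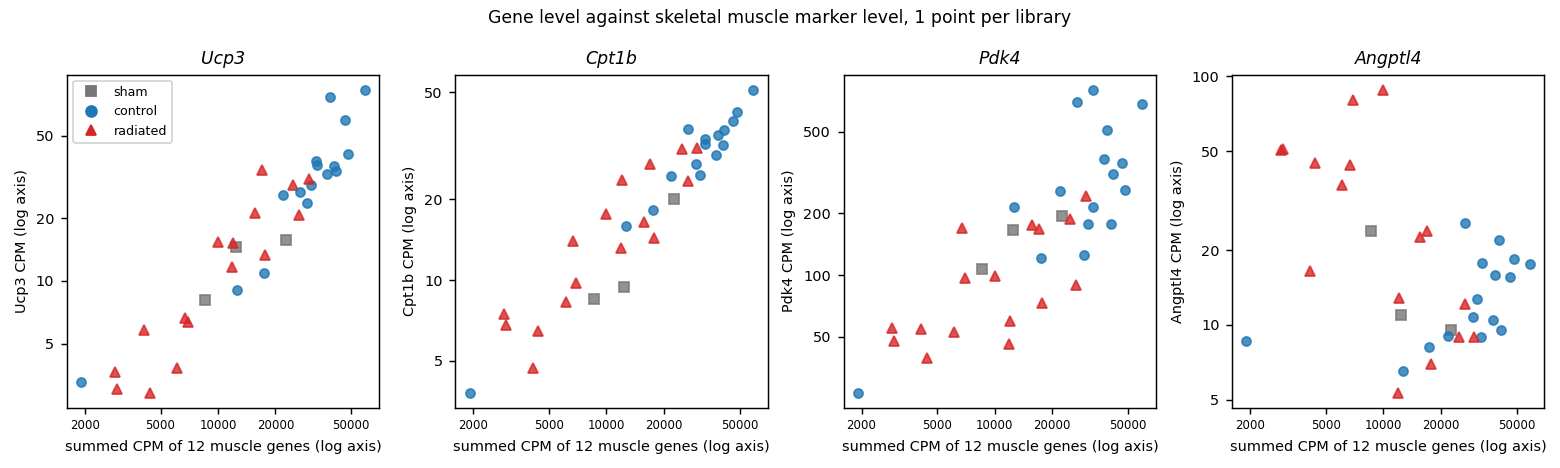
Level of Ucp3, Cpt1b, Pdk4 and Angptl4 (CPM, log axis) against the summed CPM of 12 skeletal muscle genes (log axis), 1 point per library for 3 sham, 16 control and 16 radiated libraries. Ucp3 and Cpt1b follow the muscle level (r = 0.94 each on log2 values), control replicate 1 of week 4 sits lowest on the muscle axis at 1916 CPM, and Angptl4 is highest in radiated libraries with low muscle levels.

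In week 4, where the muscle scores of radiated (7.04 to 8.17) and control skin (6.44 to 9.92) overlapped, the score was entered in the edgeR fit. That overlap rests on control replicate 1 alone, at 6.44: the other 3 controls, at 9.29, 8.98 and 9.92, lie above all radiated samples. The values with the score therefore depend on 1 library. With it, 4 of the 9 genes were called, where 40.5% of all genes were. The 4 were Angptl4 (2.26, adjusted p = 0.0043), Cpt1a (0.52, 0.00814), Acadm (-1.18, 0.000363) and Ppara (-2.18, 0.00195). Their differences were between 0.52 and 2.26 in size, near those without the term. Pdk4 was then at -0.41 (adjusted p = 0.565), Ucp3 at -0.75 (0.104), Cpt1b at -0.06 (0.877), Acadl at -0.32 (0.15) and Ppargc1a at -0.41 (0.126), none of them called. In week 3 the scores of radiated (7.53 to 8.63) and control skin (9.74 to 10.65) did not overlap, so that muscle level and irradiation cannot be told apart there; with the score 0 of the 9 genes and 0.0906% of all genes were called. The same holds for week 1, and in week 2 the ranges meet only at 10.24.

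**Figure D4:**
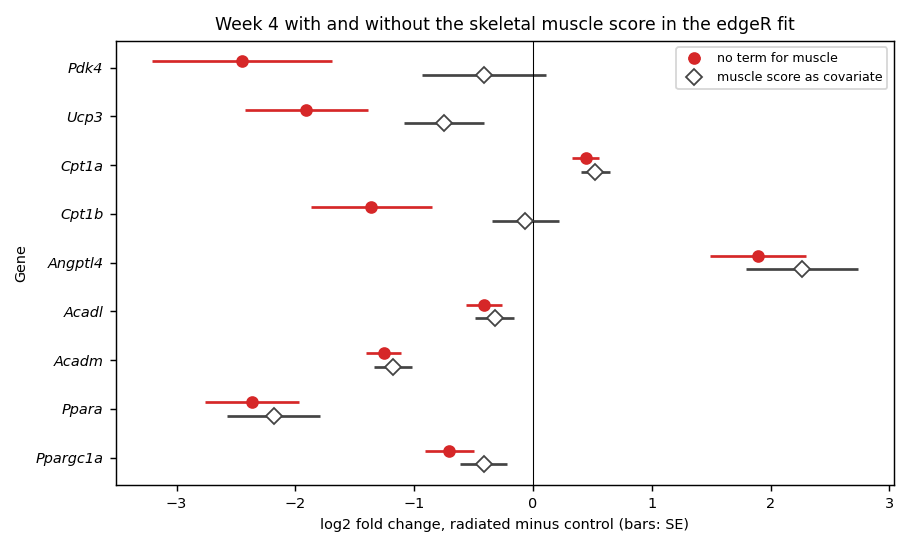
Log2 difference of radiated minus control skin in week 4 for the 9 genes, with standard errors as bars, from edgeR without a term for muscle (filled circles) and with the muscle score as a covariate (open diamonds), 4 libraries a group. Pdk4 moves from -2.45 to -0.41 and Cpt1b from -1.36 to -0.06, while Ppara moves only from -2.36 to -2.18 and Angptl4 from 1.89 to 2.26.

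The rest of the pathway was read from lists of genes that hold none of the 9. The fit with the muscle score was read only for the 9 genes, so the part of muscle level in the lists was not tested. Of 13 further genes of mitochondrial beta-oxidation, 11 were lower and 1 higher in radiated skin of week 4 (median log2 difference -0.75, beside 0.017 over all genes), where 24.2% of all genes were called in each direction. Acaa2, the thiolase that ends a round of beta-oxidation, fell by 1.33 (42.3 ± 6.63 to 16.7 ± 2.18 CPM, SD, n = 4, adjusted p = 5.84e-05), and Eci1, an isomerase for unsaturated fatty acids, fell by 1.07 (adjusted p = 0.00137, edgeR). Eci2, a related isomerase, was 0.35 higher (adjusted p = 0.0208, edgeR). In week 3, 8 of the 13 were lower and 1 higher (median -0.54, beside 0.08), where 13.6% of all genes were called in each direction. Against sham 3 were lower in week 3 and 7 in week 4 with TMM, where 7.75% and 11.5% of all genes were called lower. With total-count scaling 3 and 9 were lower than in sham, where 1236 of 18220 and 2260 of 18346 genes were. Against control, the 8 of week 3 became 5 with the replicate block, where 11.1% of all genes were called lower. They became 3 with scaling by total counts, where 1270 of 17653 genes were called lower. Scaling by total counts raised the median of all genes by 0.236 and made 76.1% of all calls of week 3 increases, against 50.1% with TMM.

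Genes of fatty acid uptake and activation and of the pyruvate dehydrogenase complex were called in 1 direction only, lower, in weeks 3 and 4, where 13.6% and 24.2% of all genes were called lower. Of 9 genes of uptake, activation and the carnitine shuttle, 4 were lower in week 3 and 5 in week 4, with 0 higher (3 and 4 lower with the replicate block). Acsl1, which activates long-chain fatty acids to acyl-CoA, fell by 1.23 (274 ± 27.3 to 116 ± 18.8 CPM, SD, n = 4, adjusted p = 5.04e-05, edgeR), and Acacb, which makes the malonyl-CoA that inhibits CPT1, fell by 1.31 (adjusted p = 0.00808, edgeR). With total-count scaling 2 were lower in week 3. Of 11 genes of pyruvate dehydrogenase, its other kinases and its phosphatases, 5 were lower in week 3 and 7 in week 4, with 0 higher in either. Against sham, radiated skin had 0 uptake genes and 0 genes of the pyruvate dehydrogenase list called in week 3, and 1 and 2 lower in week 4, where 11.5% of all genes were called lower. Pdk2, another kinase of the complex, fell by 1.20 (adjusted p = 0.0123) and Pdp1, a phosphatase that acts against the kinases, by 0.94 (adjusted p = 0.00016, edgeR).

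Of 11 other PPAR targets tested in week 4, 7 were lower and 2 higher, where 24.2% of all genes were called in each direction. Of 10 tested in week 3, 2 were lower and 2 higher (1 lower with the replicate block or with total-count scaling), near the 13.6% of all genes called each way. Cyp4a10, a fatty acid hydroxylase, fell by 2.03 in week 4 (adjusted p = 0.000204, edgeR). Plin2, which coats lipid droplets, was 0.90 higher (93.7 ± 26 to 174 ± 28.95 CPM, SD, n = 4, adjusted p = 0.00485, edgeR). Creb3l3, a membrane-bound transcription factor, rose by 3.67, from 0.709 ± 0.112 to 9.06 ± 1.87 CPM (SD, n = 4, adjusted p = 3.24e-06, edgeR). Of 12 receptors, partners and coactivators, 2 were higher and 2 lower in week 3 (1 and 1 with the block) and 1 was higher and 4 lower in week 4 (3 with the block), counts near the shares of all genes. Ppard, the receptor of the PPAR family that is abundant in many tissues, was 1.21 higher in week 4 (32.7 ± 2.72 to 75.5 ± 16.4 CPM, SD, n = 4, adjusted p = 0.000137, edgeR), against the fall of Ppara. Rxra and Rxrg, which pair with PPAR receptors on DNA, fell as well, Rxra from 232 ± 12.75 to 131 ± 16.8 CPM (adjusted p = 0.000144) and Rxrg from 3.2 ± 1.54 to 1.13 ± 0.371 CPM (SD, n = 4, adjusted p = 0.00787, edgeR).

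Pdk4 is known as a target of FOXO factors and of glucocorticoids, as are many genes of fasting. Of 15 genes responsive to fasting, FOXO or glucocorticoids, 6 were lower in week 3 and 10 in week 4, with 0 higher (median in week 4 -0.95). With the replicate block 9 were lower and 1 higher in week 4. Of all genes 13.6% and 24.2% were called lower in those weeks. Control skin was itself above sham in this list: 6, 5 and 8 of the 15 were higher in weeks 1 to 3, where 3.28%, 1.37% and 5.18% of all genes were called higher. With total-count scaling those counts were 6, 5 and 5, and the share of all calls that were higher went from 66.5% to 43.5%, from 56.3% to 38.1% and from 45.5% to 22.6%. Radiated skin against sham had 2 higher and 2 lower in week 3, where 10.4% of all genes were called higher and 7.75% lower, and 1 higher and 4 lower in week 4, where 15.2% and 11.5% were. Klf15, a factor induced by glucocorticoids, fell by 2.37 (13 ± 3.18 to 2.48 ± 0.851 CPM, SD, n = 4, adjusted p = 0.000108), and Zbtb16 fell by 2.16 (adjusted p = 0.000145, edgeR). Beside Ucp3 and the CPT1 pair, Ucp2, an uncoupling protein found in many tissues and in leukocytes, was 0.79 higher in week 4 (adjusted p = 0.00587) and Cpt1c, the form known from brain, 0.94 higher (adjusted p = 0.00192, edgeR). Ucp1 did not pass the filter on low counts. Of 8 genes of lipoprotein lipase and lipolysis, among which Angptl4 acts, 1 was lower in week 4, Pnpla2, the first lipase of triglyceride breakdown (-0.85, adjusted p = 0.00903, edgeR), and 1 higher and 1 lower in week 3.

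Genes of glycolysis and glucose uptake moved in both directions. Of 12 genes, 6 were higher and 1 lower in week 4 (median 0.645), where 24.2% of all genes were called in each direction, and 3 were higher and 3 lower in week 3 (5 and 3 with total-count scaling), where 13.6% were. Eno1, a glycolytic enzyme, was 1.64 higher in week 4 (92.2 ± 17.3 to 286 ± 17.1 CPM, SD, n = 4, adjusted p = 9.84e-06), and Slc2a1, the glucose transporter GLUT1, was 1.29 higher (60.75 ± 6.78 to 148 ± 10.5 CPM, SD, n = 4, adjusted p = 7.6e-06, edgeR). Slc2a4, the insulin-responsive GLUT4 of muscle and fat, was 1.15 lower (adjusted p = 0.0143, edgeR). In week 3 leukocyte sums were 141.7 to 293 CPM in control and 380.2 to 972.8 CPM in radiated skin, without overlap, and 4 of 6 leukocyte, 2 of 4 endothelial and 1 of 5 fibroblast markers were higher, while 2 keratinocyte markers were lower and 1 higher. With total-count scaling 5 leukocyte and 4 endothelial markers were higher in week 3. In week 4 markers of other cells differed as well: 5 of 5 fibroblast markers and 4 of 4 endothelial markers were higher, 5 of 6 leukocyte markers were higher and 1 lower, 3 of 8 adipocyte markers, 4 of 7 sebocyte markers and 4 of 6 keratinocyte markers were lower, and 1 keratinocyte marker was higher. All 5 hair markers that were tested were higher, 3 of them with the block. Fibroblast sums were 1704 to 3284 CPM in control and 18210 to 30910 CPM in radiated skin, and leukocyte sums 126.7 to 152.5 against 548 to 761 CPM. Their part in the levels of the list genes, of Angptl4 and of Cpt1a was not tested.

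**Figure D5:**
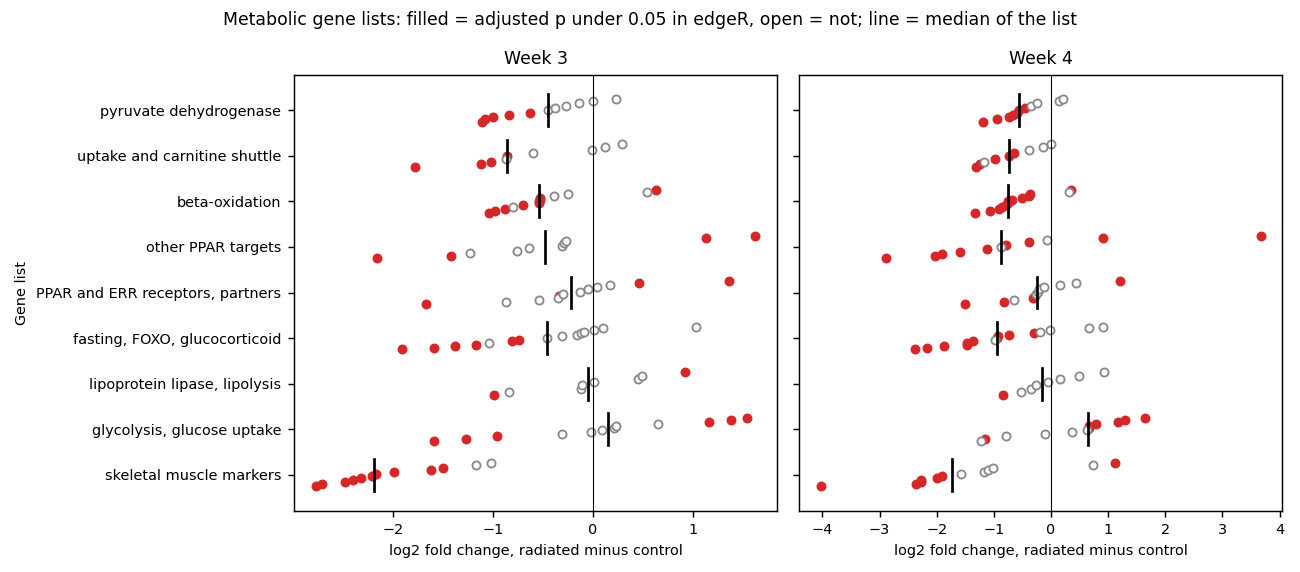
Log2 difference of radiated minus control skin for each gene of 8 metabolic lists and of the skeletal muscle markers in weeks 3 and 4 (1 point per gene, filled where the adjusted p is under 0.05 in edgeR, open where not, line at the list's median). Most filled points of beta-oxidation lie left of 0 (11 of 12 in week 4), and those of glycolysis lie mostly right of 0 in week 4 (6 of 7).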

How the data were processed

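RNA of 35 skin samples was sequenced in bulk. The authors deposited estimated counts per gene, not scaled between samples; kallisto 0.46.2, Trim Galore 0.6.7 and mm10 are named per the submitters' processing notes, and the labels' protocols name Kallisto and DESeq2. The transcriptome release and the step from transcripts to genes are not given in the sources used here. Between 29.5% and 32.5% of the values of a library were not whole, and they were rounded.

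Groups came from the sample titles. Genes were filtered with filterByExpr and fitted with the edgeR 4.0.16 quasi-likelihood test (R 4.3.3, TMM scaling), each comparison on its own 2 groups, with Benjamini-Hochberg adjustment over all genes tested and calls at an adjusted p under 0.05. The time course was 1 fit of 32 libraries. Standard errors are the log2 difference divided by the square root of F. The script was tested on simulated counts. Alternatives were total-count scaling, DESeq2 1.42.0, no filter, a mean of at least 1 CPM, a single fit of 35 libraries, the replicate block, the muscle score as a covariate and leaving out each library. The pathway lists under total-count scaling and the Cpt1b to Cpt1a ratio without each library were added after seeing the data.

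The members and gene lists were chosen with earlier results of these data known. Named in the text are all 9 members, the 5 genes most correlated with Pdk4 and with Ucp3 (at least 1 CPM on average), and in each pathway list at most 2 genes called in each direction in week 4; 1 gene that this rule names is not reported here. The pairing by number comes from the count of 35 samples from 19 mice. Deviations from the group means of same-numbered samples correlated by 0.071, 0.17, 0.053 and -0.02 on average in weeks 1 to 4, those of other pairs by -0.024, -0.057, -0.017 and 0.0074. No pair of libraries agreed within sampling noise (lowest reduced chi-square 21.3 in 51 pairs of a group), so each counted as 1 replicate. Floors cover counting error only, and p-values set a difference against the spread between these samples. Those from fits without the replicate block do not use the pairing.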

Additional observations from a re-analysis of the deposited data

Results flagged for a closer look

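In 3 of 72 sets of 4 libraries (9 genes in 8 groups), 1 library lay further from the others than Dixon's limit for 4 samples allows, where chance gives about 1 in 20. Ucp3 in radiated skin of week 3 was at 15.4 CPM in replicate 3 and at 5.8 to 6.67 CPM in the others; that library also held the most muscle marker RNA of its group, 9967 CPM against 4110 to 6936 CPM. Cpt1a in radiated skin of week 2 was at 77.1 CPM in replicate 1 and at 53 to 53.7 CPM in the others. Ppara in control skin of week 2 was at 6.08 CPM in replicate 1 and at 7.31 to 7.51 CPM in the others.

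For 2 genes the radiated-minus-control difference was not the same in all weeks by an F test of the difference between weeks. Angptl4 had an adjusted p of 0.00232 and Acadm of 0.0361 (edgeR, adjusted over 19338 genes, of which 15.6% were called). Acadm lost the call with the replicate block (0.0703) and in 3 of 4 fits without the samples of 1 number (0.11 to 0.296), and Angptl4 in 1 of 4 (0.0657). The differences of Angptl4 were -0.76, 0.15, 2.33 and 1.89 in weeks 1 to 4, and those of Acadm -0.56, -0.40, -0.89 and -1.26. The weeks come from different mice.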

How the results depend on the processing

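The number of the 9 genes called depended on the settings as follows, with the share of all genes called in the same setting in brackets. Only the larger changes of a count are listed. Single calls gained or lost in other settings, in weeks 3 and 4 too, are given with each gene or below. In every comparison of weeks 1 and 2 the counts can include Pdk4 and Ucp3, which are on the list because they ranked high in those weeks. Nothing is read from those counts. For radiated against control skin, DESeq2 called 2 in week 1 (2.73%) and 2 in week 2 (4.44%), and the replicate block 1 in week 2 (3.7%). With the muscle score as a covariate 0 were called in week 3 (0.0906%) and 4 in week 4 (40.5%). For radiated against sham skin of week 1, where 0 were called, total-count scaling gave 1 (1.87%), DESeq2 2 (6.93%), no filter 1 (2.23%), the single fit of 35 libraries 2 (6.18%) and the muscle score 1 (1.54%). In week 2, with 1 called, DESeq2 gave 4 (14.1%), no filter 2 (4.68%), the single fit 3 (16.4%) and the muscle score 0 (1.06%). The muscle score gave 1 in week 3 (14.9%) and 0 in week 4 (5.64%). For control against sham skin, DESeq2 gave 2 (17.7%), 4 (12.2%) and 5 (21.3%) in weeks 1 to 3, no filter 2 in week 1 (4.61%), the single fit 0 in week 1 (5.65%) and 4 in week 2 (7.87%), and the muscle score 0 in weeks 1 to 3 (0%, 0% and 0.0112%). Over the 4 weeks, with 2 called (15.6%), the replicate block gave 1 (15.8%). No filter gave 1 as well, where the share of all genes was not counted.

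Among the radiated-against-control differences of the 9 genes, directions changed with the muscle score or without 1 library, and in no other setting run. With the score Acadl was at 0.00419 in week 1. In week 2 Cpt1b was at 0.119, Angptl4 at -0.466, Acadl at 0.0667, Acadm at 0.203, Ppara at 0.0258 and Ppargc1a at -0.0708, and in week 3 Cpt1b was at 0.805, none called. The score ranges of radiated and control skin barely met or did not meet in those weeks. Without 1 library the uncalled week 2 differences of Cpt1a ran from -0.109 to 0.175, of Angptl4 from -0.115 to 0.349 and of Ppargc1a from -0.123 to 0.529. Against sham, the uncalled week 3 differences of Pdk4, Ucp3 and Cpt1b were 0.126, 0.249 and 1.06 with the score. Without 1 library that of Cpt1b ran from -0.329 to 0.444, and that of Cpt1a in week 4 from -0.415 to 0.173.

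Leaving out 1 library gave 0 to 2 called genes for radiated against control skin in week 1, 6 to 7 in week 3 and 5 to 8 in week 4, beside 0 to 232, 3209 to 5071 and 7548 to 8582 of all genes. Calls of week 1 were of Pdk4 or Ucp3 only, which were chosen by their rank there, so nothing is read from them. The lowest adjusted p of the other genes in those week 1 fits was 0.119 (Acadm, edgeR). Against sham, radiated skin gave 0 to 1, 0 to 1, 1 to 3 and 5 to 6 in weeks 1 to 4, beside 1 to 543, 107 to 1398, 1134 to 3965 and 3467 to 4590 of all genes, and control skin 0 to 3, 0 to 3, 1 to 3 and 0 to 2. The sham counts of weeks 1 and 2 can include Pdk4 and Ucp3 as well, and nothing is read from them. Over the 4 weeks it gave 0 to 2, with 0 without replicate 3. Beside the calls named in the results, the replicate block changed no call of the 9 genes. The single fit of 35 libraries ended the week 4 calls of Cpt1a (adjusted p = 0.0748) and Ppargc1a (0.0836) against control, of Ppargc1a against sham (0.182), and of Pdk4 (0.0942) and Cpt1b (0.0587) in control against sham skin of week 3 (edgeR). Acadl lost its call against control without a filter in week 3 (0.0618) and with a mean of at least 1 CPM in week 4 (0.0559), and Acadm against sham in week 3 with total-count scaling (0.0539). The step from week 3 to week 4 stayed at 0 called genes in every setting run. The cause of these changes was not tested.

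The lowest level of the 9 genes, 0.759 CPM for Ppara in 1 radiated library of week 4, was above the floor of 0.105 to 0.173 CPM, so depth did not hide a gene. The number of libraries, 4 a group and 3 for sham, limits the precision. Control skin of week 4 spread from 26.7 to 702 CPM for Pdk4.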
